A study of Mus musculus with 15 samples.

Results

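The secretory products of Paneth cells were followed in sorted mouse intestinal epithelium through 7 genes, Lyz1, Defa24, Defa30, Mptx2, Itln1, Ang4 and Mmp7, taken by symbol from a count table of 24594 genes. The symbols found 7 rows of 7. The series holds 15 RNA-seq libraries in 5 groups, of which the 6 libraries of sorted cells carry gene names and were used. Fetal epithelium (3 libraries) came from the proximal intestine of C57Bl/6J fetuses at E16.5 and was sorted as live EpCAM+, CD31- and CD45- cells; the labels give no genotype for it. Adult crypt epithelium (3 libraries) came from wild-type C57Bl/6J mice, from crypts of the first 20% of the small intestine, sorted for live EpCAM+ cells that lacked lineage markers and had mid-level CD24. The labels name no treatment for either group. The 9 organoid libraries stand in a table without gene identifiers, so the 7 genes were not analysed there.

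Paneth cells sit at the base of small intestinal crypts, between the stem cells, and discharge granules of antimicrobial proteins into the crypt lumen. In mice they arise after birth, as crypts form. They carry much CD24 on their surface, and CD24 is used to sort them, so a gate on middle CD24 takes a chosen part of the crypt. Paneth cells with the most CD24 may lie outside such a gate. The share of Paneth cells in the adult libraries was not measured, so adult levels here are those of the gated cells. Their granules hold lysozyme, which cuts bacterial peptidoglycan, and alpha-defensins, small cysteine-rich peptides that damage bacterial membranes. The alpha-defensins are made as inactive precursors, which matrilysin, the protease encoded by Mmp7, cleaves in mouse Paneth cells.

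Several of the 7 genes have close copies, and the sequence upstream of them is shown first. Whether this sequence or its motifs bear on the levels of these genes was not tested. Upstream sequence was found for 6 of the 7 genes in the RefSeq table of GRCm38.p6 (mm10); Defa24 had no entry. The 250 bases before the start of Mptx2 (chr1:173277757-173278006, minus strand) and of its copy Mptx1 (chr1:174330268-174330517, plus strand) were 72.4% identical in a global alignment. Capitals mark matches to CTTTGAT or CTTTGTT, the core letters bound by TCF and LEF factors of the Wnt pathway, and to TATAAA, the TATA box. The same marking holds for Defa30 (chr8:21134400-21134649, plus strand) and Mmp7 (chr9:7691840-7692089, plus strand).
Mptx2: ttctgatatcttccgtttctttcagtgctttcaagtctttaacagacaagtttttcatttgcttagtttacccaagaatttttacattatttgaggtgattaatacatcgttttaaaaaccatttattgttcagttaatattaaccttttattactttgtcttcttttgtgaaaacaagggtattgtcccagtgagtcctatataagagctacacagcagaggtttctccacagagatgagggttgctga
Mptx1: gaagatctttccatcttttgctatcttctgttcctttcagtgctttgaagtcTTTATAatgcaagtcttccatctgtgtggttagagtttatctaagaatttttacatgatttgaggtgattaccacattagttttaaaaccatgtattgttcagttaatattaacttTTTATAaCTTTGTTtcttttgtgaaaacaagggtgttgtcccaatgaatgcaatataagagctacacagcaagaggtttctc
Defa30: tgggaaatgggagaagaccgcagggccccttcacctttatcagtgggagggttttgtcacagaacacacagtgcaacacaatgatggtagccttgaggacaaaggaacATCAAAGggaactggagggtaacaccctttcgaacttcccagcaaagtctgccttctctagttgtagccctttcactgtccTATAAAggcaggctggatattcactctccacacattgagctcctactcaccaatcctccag
Mmp7: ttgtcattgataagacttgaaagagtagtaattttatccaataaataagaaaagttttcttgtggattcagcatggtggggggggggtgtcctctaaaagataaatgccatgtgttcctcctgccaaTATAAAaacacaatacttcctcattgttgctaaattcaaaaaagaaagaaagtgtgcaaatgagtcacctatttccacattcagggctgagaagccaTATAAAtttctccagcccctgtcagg

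The search covered both strands of the window from 250 bases before to 50 after the start. Beside the TCF motifs and the TATA box it looked for CAGCTG, the E-box bound by ATOH1, for the SOX motif ACAATGG and for TGACGT, the core letters of XBP1 and ATF sites. No matches overlapped each other. CTTTGAT, held by 3.73% of the 32851 windows in the table, lay 142 bases upstream in Defa30 and at position 5 after the start in Mmp7, both on the opposite strand. Mptx1 held CTTTGTT (5.85% of windows) 75 bases upstream and TATAAA on the opposite strand 82 and 198 bases upstream, and the window of Mptx2 held neither TCF motif. TATAAA (13.6% of windows) lay 61 bases upstream in Defa30 and 26 and 123 bases upstream in Mmp7. CAGCTG (16.3% of windows) stood at position 7 of Lyz1 and, likewise, of Lyz2, and ACAATGG (3.66%) at position 32 of Mptx2. TGACGT (7.51%) was not found in these 6 genes, and the windows of Itln1 and Ang4 held none of the searched letters.

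The same table shows how close the lysozyme pair is. Lyz1, the lysozyme of Paneth cells, and Lyz2, that of macrophages, lie side by side on chromosome 10. Their 250 upstream bases were 79.4% identical, and the nearest 120 bases, printed here with the differing bases in capitals, differed at 9 (Lyz1, chr10:117292869-117292988; Lyz2, chr10:117282273-117282392; both minus strand).
Lyz1: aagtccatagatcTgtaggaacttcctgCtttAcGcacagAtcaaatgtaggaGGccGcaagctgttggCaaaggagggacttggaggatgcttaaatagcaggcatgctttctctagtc
Lyz2: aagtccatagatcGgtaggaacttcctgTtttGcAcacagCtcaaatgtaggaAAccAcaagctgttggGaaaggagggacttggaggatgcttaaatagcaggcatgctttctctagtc

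Total counts were 7888998 to 10538004 in fetal and 5795518 to 6045113 in adult libraries. No library repeated another, since counts within a group departed from pure sampling (lowest chi-square over degrees of freedom 4.83). Separate animals are not stated for the replicates, and the p-values therefore reflect only how these libraries vary, which may be technical. Levels are CPM, counts scaled to a common sequencing depth by the TMM-adjusted library size, and calls rest on the quasi-likelihood test of edgeR with a Benjamini-Hochberg threshold of 0.05. Stage, sort gate and sex composition changed together, since 4 Y-linked genes had 2247 fetal and 0 adult counts. The adult libraries were made with a stranded total RNA kit for low input, and the fetal kit is not given in the sources used here. The 7 epithelial markers summed to 4896 to 4997 CPM in the fetal group and 7134 to 7561 CPM in the adult group, and the 8 crypt base stem cell markers to 368 to 525 CPM in the fetal group and 8951 to 11878.5 CPM in the adult group. Cd24a, the gene behind the adult gate, averaged 287 ± 24.0 CPM in the fetal group and 283 ± 32.3 CPM in the adult group (SD, n = 3 each) and was not called different (log2 fold change 0.02 ± 0.10 SE, edgeR adjusted p = 0.881). In sorted populations such as these, fewer cells of a type and less RNA per cell cannot be told apart.

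Of the 7 Paneth cell products 6 were lower in fetal epithelium, 0 were higher and 1, Ang4, was not called, whereas of the 13314 tested genes 54.9% were called, 25.9% as lower and 29% as higher. The median log2 fold change of the 7 was −3.14, against 0.01 over all tested genes. The changes ran from 1.23-fold for Ang4 to 179-fold for Itln1. Of the 7, 3 (Lyz1, Defa24 and Ang4) reached the low-count filter of 1.44 CPM in the 3 fetal libraries. The other 4 (Defa30, Mptx2, Itln1 and Mmp7) entered the test only through their adult level, so their calls and the count of 6 are a description. Summed, the 7 genes made up 27.8, 31.9 and 44.4 CPM across fetal replicates 1 to 3 and 172, 262 and 195 CPM across adult replicates 1 to 3.

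**Figure D1:**
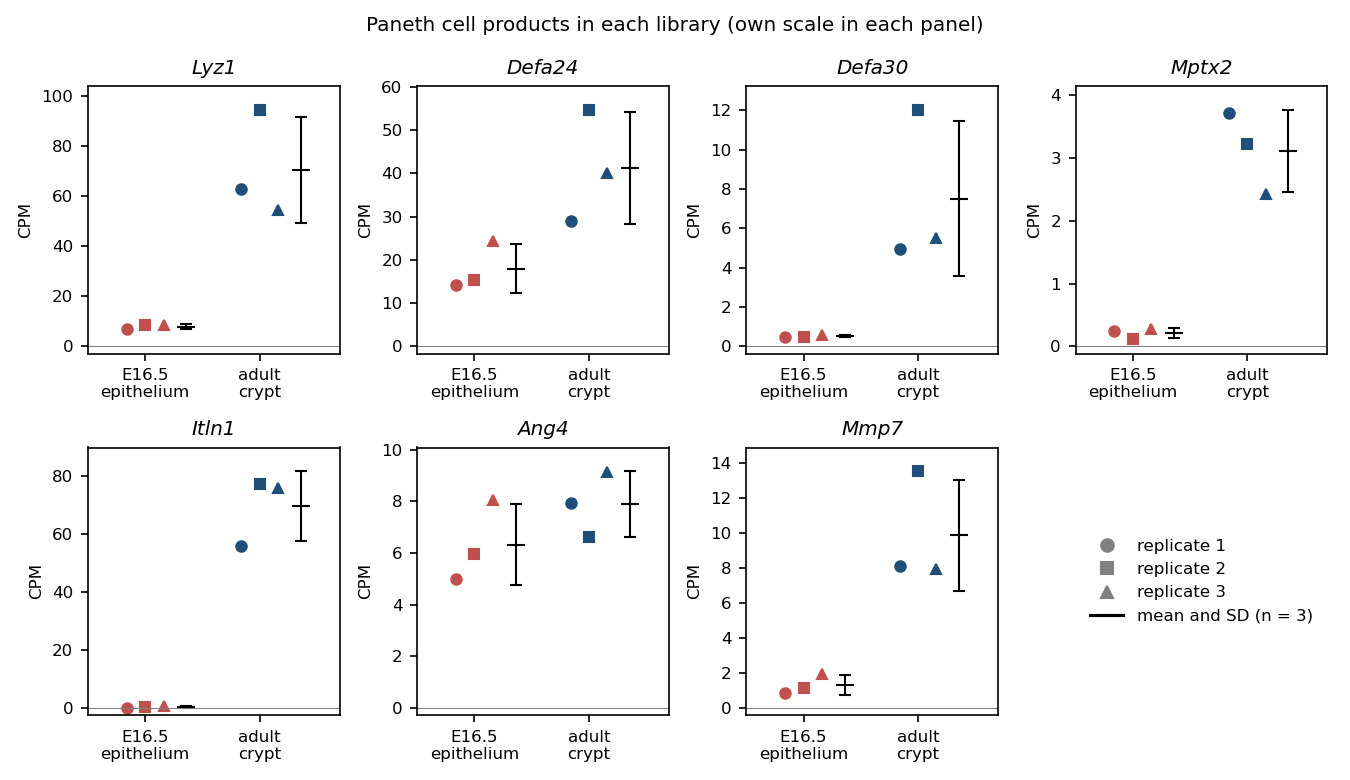
CPM of the 7 genes (vertical axes, linear, each panel on its own scale) in each library of E16.5 epithelium (red, left) and adult crypt (blue, right), with mean and SD of 3 libraries in black. The groups stand apart in 6 panels, each with fetal cells lower, which held for 29.7% of all tested genes. Of the 6, Defa30, Mptx2, Itln1 and Mmp7 entered the test only through their adult level. The groups overlap for Ang4, and adult replicate 2 is the highest adult library for Lyz1, Defa24, Defa30, Itln1 and Mmp7.

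Lyz1 (Entrez 17110, chromosome 10, 117287795 to 117292868 in mm10, minus strand, 4 exons) was lower in fetal cells. It stood at 6.85, 8.46 and 8.51 CPM across fetal replicates 1 to 3 and at 62.7, 94.4 and 54.2 CPM across adult replicates 1 to 3. The groups did not overlap, which held with fetal cells lower for 29.7% of all tested genes, and the adult libraries spread 1.74-fold between lowest and highest. The log2 fold change was −3.14 ± 0.20 (SE, edgeR adjusted p = 3.95e-08), an 8.81-fold lower level, and 1.50% of tested genes had a more negative value. The counts behind it were 214 in fetal and 1226 in adult libraries. Lyz2, the neighbouring macrophage lysozyme, had too few reads for a test, with 3 counts in fetal and 4 in adult libraries. Of the 50-base stretches of the Lyz1 transcript 16.1% also occur in Lyz2. The 9 macrophage markers summed to 28.6 to 32.2 CPM in the fetal group and 25.1 to 29.3 CPM in the adult group, with Adgre1 at 0 in both groups and C1qb at 0 in the adult group. Of the 5 macrophage markers tested, 3 were higher and 2 lower in fetal cells, and their part in the lysozyme values was not tested.

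Defa24 (Entrez 503491, chromosome 8, 21734494 to 21735471, plus strand, 2 exons) was the alpha-defensin with the most counts in both groups. It had 14.2, 15.4 and 24.4 CPM across fetal replicates 1 to 3 and 28.9, 54.7 and 40.1 CPM across adult replicates 1 to 3. The groups did not overlap, but the highest fetal and the lowest adult library lay close to each other. Its log2 fold change was −1.18 ± 0.23 (SE, edgeR adjusted p = 8.17e-04), a 2.26-fold lower level in fetal cells, over 499 fetal and 719 adult counts.

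Defa30 (Entrez 100038927, chromosome 8, 21134650 to 21135598, plus strand, 2 exons) stood at 0.498, 0.498 and 0.561 CPM across fetal replicates 1 to 3 and at 4.94, 12.0 and 5.53 CPM across adult replicates 1 to 3. Adult replicate 2 stood above the other adult libraries, with a highest-to-lowest ratio of 2.43, and no fetal library came near them. Its log2 fold change was −3.80 ± 0.46 (SE, edgeR adjusted p = 1.30e-05), over 14 fetal and 131 adult counts. The 2 defensins stood in different proportions, which is a description, since Defa30 entered the test only through its adult level. There were 28.5, 31.0 and 43.5 Defa24 counts for each Defa30 count in fetal replicates 1 to 3 and 5.86, 4.55 and 7.25 in adult replicates 1 to 3. This ratio does not depend on library size, and its groups did not overlap (exact two-sided permutation test p = 0.1, the smallest that 3 against 3 libraries allow; adjusted p = 0.129 over 9 ratios).

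The other alpha-defensin genes showed which of this cluster could be seen at this depth. Of 26 alpha-defensin rows, Defa24 and Defa30 included, 13 had 0 counts in every library, 7 had 1 to 9 counts over the 6 libraries and 6 had at least 10. Of the 24 rows other than Defa24 and Defa30, 3 were tested, of which 2 (Defa38 and Defa39) were called lower in fetal cells and 0 higher, against 25.9% and 29% of all tested genes. Both entered the test only through their adult level, so these calls are a description. Defa38 had 0 counts in the 3 fetal libraries and 21, 23 and 21 counts in adult replicates 1 to 3, at least 33.4-fold lower in fetal cells when the fetal group is set to a floor of 3 counts (edgeR adjusted p = 5.43e-06). Defa39 had 1, 1 and 3 counts in fetal replicates 1 to 3 and 33, 42 and 22 counts in adult replicates 1 to 3 (log2 fold change −4.78 ± 0.48 SE, edgeR adjusted p = 2.67e-06). Both followed the direction of Defa30, with almost no fetal reads. Defa17 was not called, at 2.17 ± 0.694 CPM in the fetal group and 2.71 ± 0.117 CPM in the adult group (SD, n = 3 each), with overlapping groups (log2 fold change −0.30 ± 0.34 SE, edgeR adjusted p = 0.475). Defa26 was too low for a test, with 6 counts in each group. Defa24 took 86.4%, 80.0% and 87.0% of all alpha-defensin counts in fetal replicates 1 to 3 and 61.4%, 67.2% and 70.5% in adult replicates 1 to 3. Values of single defensins are uncertain where copies share sequence: 28.1% of the 50-base stretches of the Defa24 transcript occur in another gene, 52.4% of those of Defa30, 55.6% of those of Defa38 and 92.0% of those of Defa17. With all alpha-defensin rows summed into 1 value, an alternative chosen after the data were seen, the fetal level was lower by a log2 fold change of −1.52 ± 0.21 (SE, edgeR adjusted p = 4.62e-05).

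**Figure D2:**
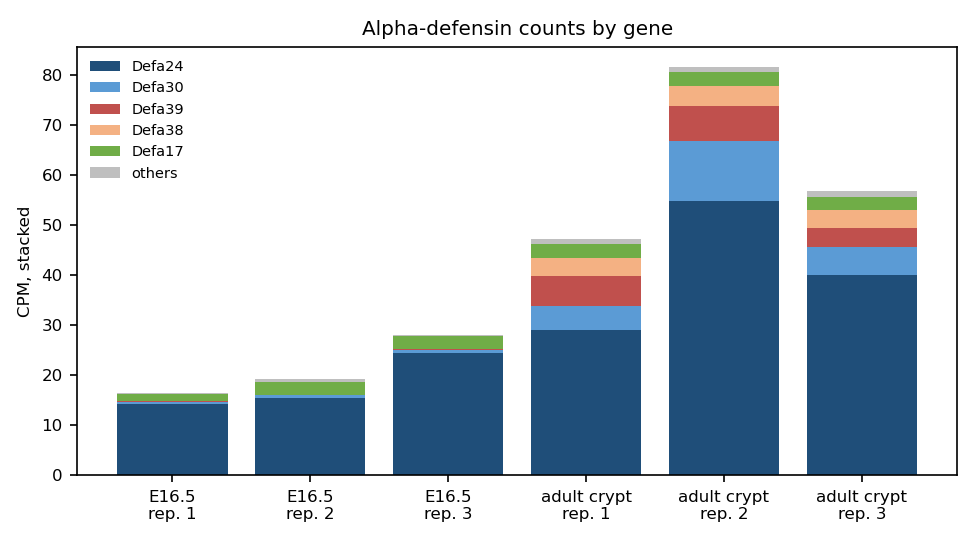
CPM of the alpha-defensin genes stacked by gene (vertical axis, linear, from 0) in each library, with fetal libraries on the left and adult libraries on the right. Defa24 fills 80.0% to 87.0% of the fetal and 61.4% to 70.5% of the adult columns, and Defa39 and Defa38 are seen in the adult columns, where Defa38 has 0 counts in the fetal ones.

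Mmp7 (Entrez 17393, chromosome 9, 7692090 to 7699585, plus strand, 6 exons), the protease that activates the defensin precursors in mice, was lower in fetal cells together with them. It stood at 0.871, 1.12 and 1.96 CPM across fetal replicates 1 to 3 and at 8.12, 13.6 and 7.94 CPM across adult replicates 1 to 3. The groups did not overlap, and the highest library was fetal replicate 3 in one and adult replicate 2 in the other. The log2 fold change was −2.84 ± 0.35 (SE, edgeR adjusted p = 1.58e-05), a 7.16-fold lower level, over 37 fetal and 172 adult counts. None of the 50-base stretches of its transcript, 0% of 1019, occurs in another gene. For each Lyz1 count there were 0.127, 0.132 and 0.231 Mmp7 counts in fetal replicates 1 to 3 and 0.130, 0.144 and 0.146 in adult replicates 1 to 3, so this proportion overlapped between the groups (difference 0.17 ± 0.28 SE on the log2 scale, exact two-sided permutation p = 0.9, adjusted p = 0.9).

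Itln1 (Entrez 16429, chromosome 1, 171518123 to 171535325, minus strand, up to 8 exons), an intelectin that binds sugars of microbial surfaces and is made by goblet as well as Paneth cells, had the largest fold change of the 7. Its counts were 1, 2 and 7 in fetal replicates 1 to 3 and 316, 456 and 438 in adult replicates 1 to 3, or 0.124, 0.249 and 0.654 CPM in fetal and 55.8, 77.3 and 75.6 CPM in adult libraries. Fetal replicate 3 held 7 of the 10 fetal counts, whereas the adult libraries were close together with a highest-to-lowest ratio of 1.39. The log2 fold change was −7.48 ± 0.28 (SE, edgeR adjusted p = 2.43e-10), a 179-fold lower level, and −8.39 without fetal replicate 3. The pooled counts gave an adult-to-fetal ratio of 187. Goblet markers moved beside it: the 10 listed markers summed to 4630 to 7016 CPM in the fetal group and 17281 to 32772 CPM in the adult group, 6 of the 9 tested were lower and 1 was higher in fetal cells, and Retnlb was at 0 in the fetal group. Their part in the Itln1 result was not tested.

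Mptx2 (Entrez 100504232, chromosome 1, 173274461 to 173277756, minus strand, 2 exons), a mucosal pentraxin of mouse Paneth cells, was the least abundant of the 7. It had 2, 1 and 3 counts in fetal replicates 1 to 3 and 21, 19 and 14 counts in adult replicates 1 to 3. In CPM these were 0.249, 0.124 and 0.280 in fetal and 3.71, 3.22 and 2.42 in adult libraries, with no overlap. The log2 fold change was −3.70 ± 0.47 (SE, edgeR adjusted p = 2.27e-05), a 13.0-fold lower level. The exact 95% counting interval of the fetal-to-adult ratio, 0.0721, was 0.0253 to 0.167, and it covers counting error only.

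Its copy Mptx1, whose upstream sequence is printed beside that of Mptx2, moved the other way. Mptx1 was named after its values were seen, and it entered the test only through its fetal level, so its call is a description. It stood at 8.22, 12.7 and 15.5 CPM across fetal replicates 1 to 3 and at 1.59, 1.02 and 2.07 CPM across adult replicates 1 to 3. Every fetal library lay above every adult one, and the log2 fold change was 2.96 ± 0.34 (SE, edgeR adjusted p = 8.08e-06), a higher fetal level. For each Mptx2 count there were 33.0, 102 and 55.3 Mptx1 counts in fetal replicates 1 to 3 and 0.429, 0.316 and 0.857 in adult replicates 1 to 3. Mptx1 counts exceeded Mptx2 counts in each fetal library, and the reverse held in each adult library. The exact two-sided permutation p of this ratio was 0.1, the smallest possible here (adjusted p = 0.129). Mptx2 entered the test only through its adult level and Mptx1 only through its fetal level. The ratio is therefore a description, and its p-value adds no support. The transcripts share 18.0% of the 50-base stretches of Mptx2, so reads of the other stretches are particular to 1 copy.

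Ang4 (Entrez 219033, chromosome 14, 51763892 to 51773590, minus strand, 2 exons), a bactericidal ribonuclease of the angiogenin family, was the 1 product not called. It stood at 4.98, 5.97 and 8.04 CPM across fetal replicates 1 to 3 and at 7.94, 6.61 and 9.15 CPM across adult replicates 1 to 3. Fetal replicate 3 lay above adult replicates 1 and 2, so the groups overlapped. The log2 fold change was −0.30 ± 0.24 (SE, edgeR adjusted p = 0.314), over 174 fetal and 137 adult counts, and the exact 95% counting interval of the fetal-to-adult ratio was 0.655 to 1.04. That interval covers counting error only and does not show equal levels; the same ratio for Lyz1 was 0.113, with an interval of 0.0974 to 0.131. For each Lyz1 count there were 0.727, 0.706 and 0.945 Ang4 counts in fetal replicates 1 to 3 and 0.127, 0.0700 and 0.169 in adult replicates 1 to 3, with no overlap (exact two-sided permutation p = 0.1, the smallest possible here; adjusted p = 0.129). Ang, the angiogenin that gives the family its name, was higher in fetal cells at 42.8 ± 9.54 CPM, against 14.5 ± 1.38 CPM in adult cells (SD, n = 3 each; log2 fold change 1.56 ± 0.17 SE, edgeR adjusted p = 6.54e-06), and was also named after its values were seen. Reads of Ang are uncertain, because 10.7% of its 50-base stretches also belong to Rnase4, a gene of the same locus.

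**Figure D3:**
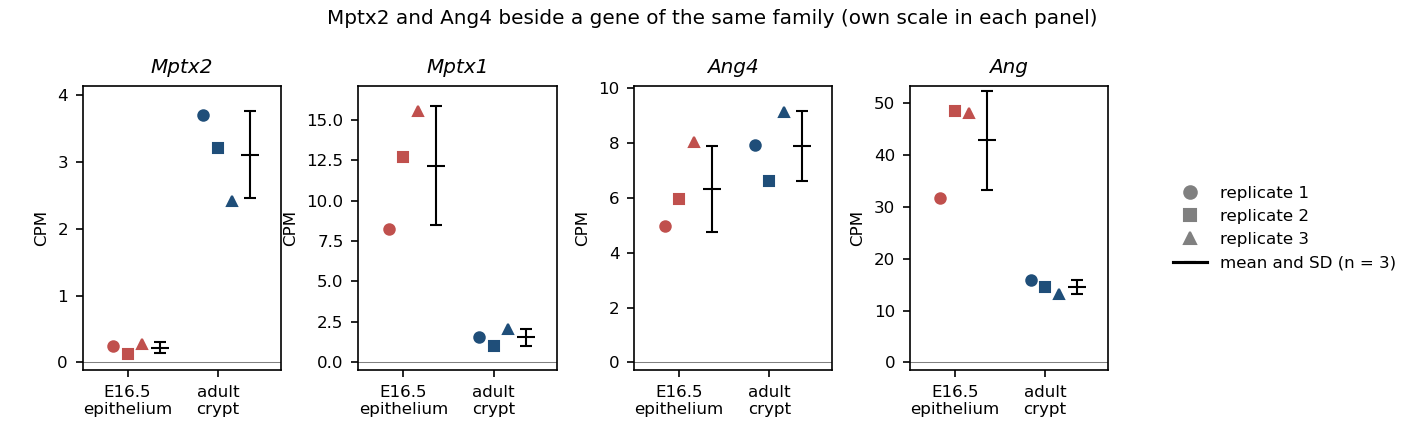
CPM of Mptx2, Mptx1, Ang4 and Ang (vertical axes, linear, each panel on its own scale) in E16.5 epithelium (red, left) and adult crypt (blue, right), with mean and SD of 3 libraries in black. Mptx2 is higher in the adult libraries and Mptx1 in the fetal ones, while Ang4 overlaps and Ang is higher in the fetal libraries.

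Set side by side per length, the order of the products differed between stages. Levels here are CPM per kilobase of exon. In fetal cells Defa24 led with 43.0 ± 13.3, followed by Ang4 with 8.93 ± 2.20 and Lyz1 with 6.29 ± 0.749 (SD, n = 3), and these 3 did not overlap each other. Defa30 with 1.30 ± 0.0915 and Mmp7 with 1.23 ± 0.536 overlapped, as did Itln1 with 0.300 ± 0.243 and Mptx2 with 0.274 ± 0.104. In adult cells Defa24 led with 98.4 ± 30.9 and stood apart from Itln1 with 61.0 ± 10.5, which overlapped Lyz1 with 55.8 ± 16.8. Defa24 also overlapped Lyz1, since its lowest library, at 69.1, lay below the highest Lyz1 library, at 74.7. Defa30 with 18.8 ± 9.89, Ang4 with 11.1 ± 1.79 and Mmp7 with 9.24 ± 2.99 overlapped each their neighbour, and Mptx2 came last with 3.92 ± 0.820. Ang4 was thus in place 2 of 7 in fetal and in place 5 of 7 in adult cells, and Itln1 in place 6 in fetal and 2 in adult cells. Of the counts of the 7 genes, Ang4 took 17.9% to 18.8% in fetal and 2.52% to 4.69% in adult libraries, and Itln1 0.448% to 1.47% in fetal and 29.5% to 38.8% in adult libraries.

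**Figure D4:**
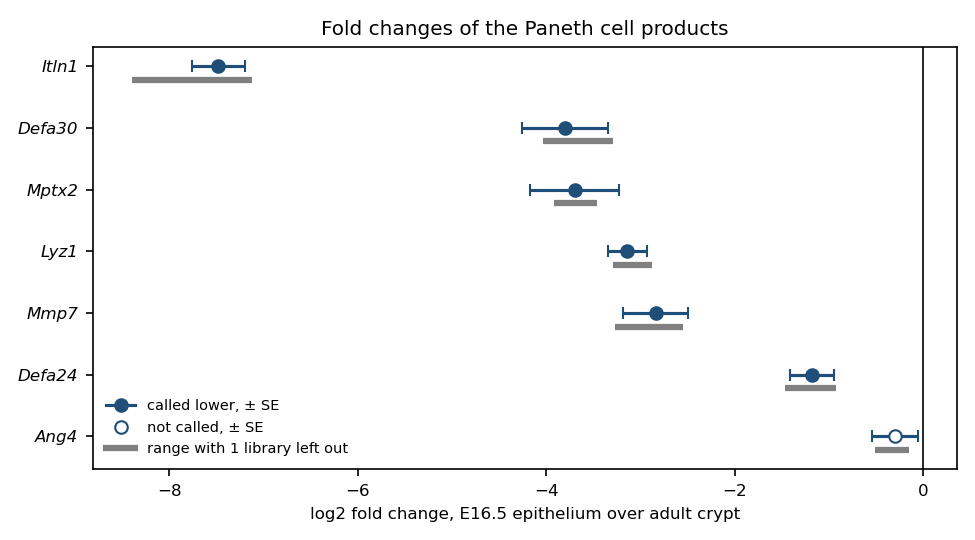
Log2 fold changes of E16.5 epithelium over adult crypt (horizontal axis) for the 7 genes, with the standard error, and in gray the range when each of the 6 libraries was left out in turn. Points run from −7.48 for Itln1 to −0.30 for Ang4, filled where the gene was called lower. No gray range reaches 0, but it spans estimates only and is not an error interval. Ang4 was not called with any library left out.

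Within the groups, fetal replicate 3 was the highest fetal library for all 7 genes, by 1.13-fold over the lowest for Defa30 and up to 5.26-fold for Itln1. The 7 stomach markers were also highest there, at 26.9, 25.8 and 304 CPM across fetal replicates 1 to 3, against 1.77, 3.90 and 2.94 CPM across adult replicates 1 to 3; Gkn1, Gkn2, Muc5ac, Cblif and Cym were at 0 in the adult group. Of these markers 3 were tested and 2 were higher in fetal cells, and their part in the level of the products was not tested. Without fetal replicate 3 the same 6 genes were called lower and Ang4 was not, with a log2 fold change of −1.47 for Defa24 and −0.52 for Ang4. In adult cells replicate 2 was highest for Lyz1, Defa24, Defa30, Itln1 and Mmp7, replicate 1 for Mptx2 and replicate 3 for Ang4. Leaving out adult replicate 2 gave −2.88 for Lyz1, −0.93 for Defa24 and −3.29 for Defa30, and each was still called.

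The genes whose profile over the 6 libraries lay nearest to that of a product were found among 10042 tested genes. The measure was the root mean square distance of gene-centred log2 CPM, with a prior count of 2 added before the logarithm. This addition shrinks differences where counts are few, so a small distance there does not mean an equal fold change. Khk, nearest to Mptx2 (log2 fold change −3.70), had −2.75, and Car4, near Itln1 (−7.48), had −9.70. For Lyz1 they were Ly6e, Klf9 and Acot7, at distances of 0.17, 0.20 and 0.22. For Defa24 they were Snhg1, Arl14 and Snord33 (0.15 to 0.17), for Itln1 Apol10a, Car4 and Prelp (0.26 to 0.33) and for Ang4 Marchf2, Nat2 and Gpcpd1 (0.09 to 0.10). Acot7, Oasl1 and Ly6e lay nearest to Defa30 (0.30 to 0.33), Khk, Tlr3 and Rdh7 to Mptx2 (0.13 to 0.18) and Npas2, Rdh7 and Dgka to Mmp7 (0.17 to 0.27). Among the 7 themselves Lyz1 and Defa30 were the closest pair (0.21), and Itln1 and Ang4 the most distant (3.30).

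Of 21 listed other Paneth products 19 had a row and 15 were tested, of which 5 were called lower and 9 higher in fetal cells, with a median log2 fold change of 1.56; over all tested genes 25.9% were lower and 29% higher, with a median of 0.01. The C-type lectins Reg3g, which kills Gram-positive bacteria, and Reg3b were lower, at 1.41 ± 0.258 CPM in the fetal group and 348 ± 37.2 CPM in the adult group for Reg3g (SD, n = 3 each; log2 fold change −7.96 ± 0.16 SE, edgeR adjusted p = 3.22e-12), and with a log2 fold change of −6.51 ± 0.33 (SE) for Reg3b. Reg3g entered the test only through its adult level, so its call is a description. Habp2, a plasma protease that binds hyaluronan, was higher, at 32.9 ± 5.10 CPM in the fetal group and 2.24 ± 0.263 CPM in the adult group (SD, n = 3 each; log2 fold change 3.86 ± 0.21 SE, edgeR adjusted p = 6.70e-09). Clps, the colipase of fat digestion, which the pancreas also makes, stood at 181, 353 and 205 CPM across fetal replicates 1 to 3 and at 13.8, 13.9 and 4.32 CPM across adult replicates 1 to 3 (log2 fold change 4.53 ± 0.33 SE, edgeR adjusted p = 1.02e-07). The 10 pancreatic exocrine markers, with 7 of 7 tested higher, summed to 699, 1524 and 688 CPM across fetal replicates 1 to 3 and to 1.06, 2.20 and 0.691 CPM across adult replicates 1 to 3, with Cela3b, Prss2, Try4 and Pla2g1b at 0 in the adult group. Clps and these markers were both highest in fetal replicate 2. Of the other listed products called higher, Ang, Nupr1, Habp2, Pnliprp2 and Rnase1 were also highest there, while Mptx1, Hspb8 and Fgfrl1 were not. The part of pancreatic cells in the values of Clps and these products was not tested. Hspb8 and Pnliprp2, like Mptx1, entered the test only through their fetal level, so their calls are a description.

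Of 20 listed regulators of the Paneth fate, all tested, 8 were called lower, 5 higher and 7 not called, with a median log2 fold change of −0.21. Over all tested genes 25.9% were lower and 29% higher, and nothing particular to the regulators is read from their counts. Sox9, a Wnt-dependent factor that mouse Paneth cells need, was lower at 171 ± 19.9 CPM in the fetal group and 230.3 ± 25.3 CPM in the adult group (SD, n = 3 each; log2 fold change −0.43 ± 0.10 SE, edgeR adjusted p = 0.00382). Gfi1, which acts after Atoh1 in secretory fate, was higher at 10.5 ± 2.57 CPM in the fetal group and 6.21 ± 0.840 CPM in the adult group (log2 fold change 0.75 ± 0.23 SE, edgeR adjusted p = 0.0155). Atoh1, the switch to secretory fate, had a log2 fold change of −0.59 ± 0.24 (SE, edgeR adjusted p = 0.0524), Spdef 0.35 ± 0.14 (adjusted p = 0.0556) and the Wnt effector Tcf7l2 −0.13 ± 0.10 (adjusted p = 0.287), and these 3 were not called. Ephb3, the receptor that holds Paneth cells at the crypt base, was lower at 10.1 ± 0.390 CPM in the fetal group and 45.6 ± 4.85 CPM in the adult group (SD, n = 3 each; log2 fold change −2.17 ± 0.13 SE, edgeR adjusted p = 2.14e-08), with its ligand Efnb1 at −1.32 ± 0.10. The receptor kinase Kit was higher (log2 fold change 1.58 ± 0.15 SE). Mesenchyme markers were also higher in fetal cells, with 8 of 8 higher, a sum of 139 to 198 CPM in fetal libraries and of 6.56 to 14.3 CPM in adult ones, and Sparc at 0 in the adult group. Across fetal replicates 1 to 3 Kit stood at 44.2, 56.4 and 60.2 CPM and the sum of these markers at 188, 198 and 139 CPM. The part of mesenchyme in the Kit value was not tested.

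Genes of granule release, autophagy and microbial sensing were called lower in 6 of 13 tested cases and higher in 1, with a median log2 fold change of −0.36. Over all tested genes 25.9% were called lower, 29% higher and 54.9% in either direction. The number of calls in this list is near the background, but they lay mostly on the lower side. Whether this lean exceeds the background was not tested. Kcnn4, the calcium-activated potassium channel linked to Paneth cell secretion, stood at 1.87, 1.12 and 1.12 CPM across fetal replicates 1 to 3 and at 76.6, 68.3 and 77.7 CPM across adult replicates 1 to 3. The groups lay far apart (log2 fold change −5.76 ± 0.18 SE, edgeR adjusted p = 4.19e-11). Irgm1, an interferon-induced GTPase of autophagy, was lower (log2 fold change −1.78 ± 0.13 SE), as was Nod2, the sensor of bacterial muramyl dipeptide, with −2.20 ± 0.36. Kcnn4 and Nod2 entered the test only through their adult level, so their calls are a description. Mttp, which loads lipoproteins, was higher, with 1.46 ± 0.11. Enterocyte markers moved with Mttp, with 7 of 8 higher and 1 lower, and a sum of 4460 to 6236 CPM in fetal libraries and of 1589 to 2082 CPM in adult ones; their part in its value was not tested. Of 8 niche signals that Paneth cells give to stem cells, 6 were tested, and 1 was called in each direction. Egf was higher, at 2.85 ± 0.773 CPM in the fetal group and 0.582 ± 0.448 CPM in the adult group (SD, n = 3 each; log2 fold change 2.28 ± 0.50 SE, edgeR adjusted p = 0.00188), and the Notch ligand Jag1 was lower (log2 fold change −0.38 ± 0.13 SE, edgeR adjusted p = 0.0216). Egf entered the test only through its fetal level, so its call is a description. The other 4 tested signals were not called, and their list had a median log2 fold change of 0.04. The list held 2 lower genes without fetal replicate 3, without adult replicate 2 or without adult replicate 3.

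**Figure D5:**
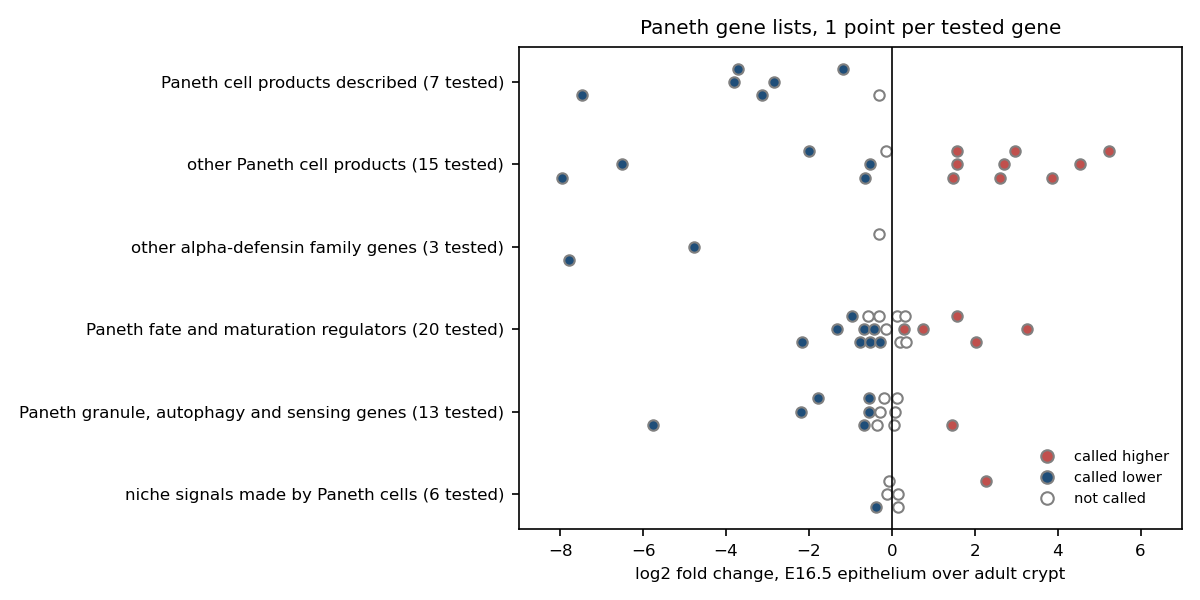
Log2 fold changes of E16.5 epithelium over adult crypt (horizontal axis), with 1 point per tested gene for the 7 products and the 5 other Paneth gene lists (vertical axis; points are spread vertically only to show them). Among the other Paneth products 9 points are called higher and 5 lower, where 29% and 25.9% of all tested genes were so called. Some of the 9 entered the test only through their fetal level. The regulators lie on both sides of 0.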

How the data were processed

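The authors deposited whole-number counts per gene, not normalized, for the 6 libraries of sorted cells, judged from the values themselves. Of the upstream steps, mm10 and edgeR stand in the submitters' processing notes, while the aligner, the counter, its annotation and its strand setting were not given in these sources. Adult columns were matched to samples by stage, tissue and replicate number in the titles.

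Calls come from the edgeR 4.0.16 quasi-likelihood test (R 4.3.3), using TMM factors, the filterByExpr rule by group (a count of 10 at the median library size) and no covariate, over 13314 of 24594 genes. The standard error is the log2 fold change divided by the square root of F, an approximation. The ribosomal RNA precursor Rn45s, 7.32% to 10.7% of a library, was kept. Count ratios were tested by exact permutation over libraries. Coordinates and promoters are from RefSeq (GRCm38.p6), and exons, exon lengths and 50-base stretches from GENCODE vM21. Identity was computed with Biopython 1.88.

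The 7 genes and all lists were chosen with earlier results of these data known. Named were the 7 genes, up to 4 called genes per list with the smallest p, defensins with at least 10 counts, Lyz2, Clps, Cd24a, Epcam and 5 regulators, and the 3 genes nearest in profile to each product with an average log2 CPM of at least 3. The text gives those that bear on the products, and 1 gene that the rule names is not reported here. No gene set was tested. Alternatives were RLE factors, library size only, DESeq2 1.42.0, no low-count filter, Rn45s left out, each library left out, and the replicate number as a block. The test was checked on simulated counts with 200 genes changed and 12149 tested. It recovered 97.9% of 4-fold and 86.2% of 2-fold changes, and 6.45% of its calls were false. In the data 54.9% of tested genes were called, a setting that this check does not cover.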

Additional observations from a re-analysis of the deposited data

How the results depend on the processing

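Defa30, Mptx2, Itln1 and Mmp7 entered the main test only through their adult level, so the stability of their calls is a description. The direction and the call of each of the 7 genes were the same under each of the 12 alternatives: 6 were called lower, 0 higher, and Ang4 was not called. Over these, the log2 fold change ran from −3.30 to −2.88 for Lyz1, −1.47 to −0.93 for Defa24, −4.04 to −3.29 for Defa30, −3.92 to −3.46 for Mptx2, −8.39 to −7.12 for Itln1, −0.52 to −0.15 for Ang4 and −3.28 to −2.55 for Mmp7, each extreme reached with a library left out. The summed alpha-defensins, an alternative chosen after the data were seen, had −1.52. All genes called numbered 7304, and 6397 to 8205 under the alternatives. The median of all genes moved by 0.13 with DESeq2 and by 0.13 without the low-count filter, both of which tested more genes. Granule, autophagy and sensing genes called higher numbered 2 with DESeq2 and 2 without the filter. Niche signals called lower numbered 2 without the filter, and 1 to 2 over the left-out libraries. The replicate numbers did not pair the samples: same-numbered libraries had correlated deviations of −0.06, −0.04 and −0.09, and 0 of 3 adult libraries correlated best with the fetal library of its own number. With the number as a block, 6886 genes were called, with −3.10 for Lyz1 and 6 of the 7 lower. Fetal counts of 6 for Mptx2, 10 for Itln1 and 14 for Defa30 limit the precision of their fold changes, and stage, gate, sex and possibly kit changed together.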
